A study of Mus with 4 samples.

Results

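The genes described here move, bind, store or sense zinc, copper and iron. They are the zinc transporters of the Slc30a and Slc39a families, the metallothioneins with their activator Mtf1, the copper transporters with the chaperone Atox1, and genes of iron uptake, storage, export and sensing. Probe sets were taken by symbol alone, when the platform annotation gave them 1 symbol and that symbol was on the list. The rule uses no measured value, but the list was drawn up with earlier results of these data known. This gave 104 of the 45101 probe sets of the array, for 47 of 18193 genes. Of the 104, 101 were tested and 3 are control probe sets for the transferrin receptor Tfrc, which are described without a test. The ferritin light chain gene Ftl1 was also listed, but no probe set carries its symbol alone, so it is not analysed here.

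RNA came from PPS-ICBR, a prostate cancer cell line of C57Bl6 mouse origin, grown in DMEM with serum. Cells at 60% confluency were left overnight with 5 µM of vorinostat in a DMSO solution. Control cells had 5 µL of the solvent, DMSO, in 10 mL of medium. Each treatment has 2 Affymetrix arrays, called DMSO 1 and 2 and Vorinostat 1 and 2, and nothing in the labels says that they came from separate cultures. The p-values therefore measure only the spread between these arrays, which may be technical, and 1 cell line cannot stand for prostate tumours in general. Vorinostat inhibits histone deacetylases, the enzymes that remove acetyl groups from histones and other proteins.

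Cells keep free metal ions scarce. Zinc enters the cytosol through ZIP (Slc39a) proteins and leaves it, for the outside or for organelles, through ZnT (Slc30a) proteins, while metallothioneins bind zinc and copper through their cysteines and are switched on by Mtf1 when zinc rises. Copper enters through Slc31a1 and is handed by Atox1 to the pumps Atp7a and Atp7b, which load copper enzymes in the Golgi or expel the metal. Iron enters with transferrin through Tfrc, is stored in ferritin and leaves through Slc40a1, and the iron regulatory proteins, encoded by Aco1 and Ireb2, adjust several of these messages by binding them when iron is low. The prostate is known for its unusually high zinc content.

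All values are the deposited log2 expression values, and each change is vorinostat minus DMSO in log2 units, with its standard error (SE) and n = 2 arrays per group. A change was called when its adjusted p was under 0.05 in limma (a linear model for every probe set, with Benjamini-Hochberg adjustment over all 45037 tested). A gene is represented by its probe set of highest mean. A probe set is called near background in a group when both arrays lie within 1 log2 unit of the highest tryptophan-gene control, a bacterial sequence, on that array. Because these are values for a whole culture, fewer cells of a kind and less RNA per cell cannot be told apart.

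The labelled origin was checked against marker genes. The luminal keratins Krt8 (11.11 to 12.36 over the 4 arrays) and Krt18 (11.37 to 11.51) were far above background, as were the epithelial genes Epcam and Cdh1, whereas the prostate secretory gene Pbsn was near background in both groups. The mesenchymal genes Vim (13.05 to 13.47) and Col1a2 (12.40 to 12.68) were also far above background. The mean of 5 mesenchymal markers was 9.40 and 9.41 in DMSO and 9.86 and 10.03 in vorinostat, with Pdgfra, Dcn and Vim called higher and the collagens Col1a1 (-0.31) and Col1a2 (-0.21) not passing. That of 5 luminal markers was 8.33 and 8.36 against 8.03 and 8.08, with only Krt8 called lower (-1.05). The luminal markers Krt18 (-0.07), Epcam (-0.25), Cdh1 (-0.09) and Pbsn (-0.01) did not pass. Nor did the basal markers Krt14 (0.23), Krt5 (0.09) and Trp63 (0.05). The part of the marker changes in the metal genes was not tested. Of all genes, 20.9% were called higher and 18.9% lower. Of those above the background margin in at least 1 group, 26.8% were called higher and 24.8% lower. Among all called genes 52.5% were higher, against 84.7% when arrays were scaled on 7 reference genes. That scaling moved the median gene from 0.03 to 0.40, mostly through Gusb (-1.42) and Polr2a (-0.75), and without these it was 0.11.

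Of the 47 metal genes, 15 were higher with vorinostat and 11 lower, and 21 did not pass. That is 55.3% called, against 39.9% of all genes. Above the background margin in at least 1 group, 26 of 41 metal genes were called (63.4%), against 51.6% of all such genes. The largest rises were those of the copper pump Atp7a (3.94-fold) and the copper chaperone Atox1 (3.33-fold), and the largest falls those of the ferroxidase ceruloplasmin (Cp, 2.75-fold lower) and the zinc importer Slc39a10 (2.57-fold lower). Changes of at least 2-fold were called in 4 genes that were higher and 2 that were lower, or 12.8% in all, against 5.74% higher and 6.17% lower, or 11.9%, of all genes. Above the background margin in at least 1 group, that share was 14.6% of metal genes, against 16% of all such genes. The arrays of the groups did not overlap for 36 of the 47 (76.6%), against 68.9% of all genes. Leaving out single arrays, 8, 8, 8 and 9 metal genes were higher and 4, 5, 4 and 6 lower, without DMSO 1, DMSO 2, Vorinostat 1 and Vorinostat 2 in turn. Under each of these omissions 11 genes were called: Atp7a, Atox1, Slc31a1, Mt1, Mt2, Slc40a1, Slc11a2, Tfrc, Cp, Slc39a10 and Slc39a6. Scaling on 7 reference genes gave 32 higher and 3 lower (Cp, Slc39a10 and Tfrc), against 11340 and 2048 of all 18193 genes. Leaving Gusb and Polr2a out of it gave 17 and 9, against 4715 and 3048 of all genes.

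**Figure D1:**
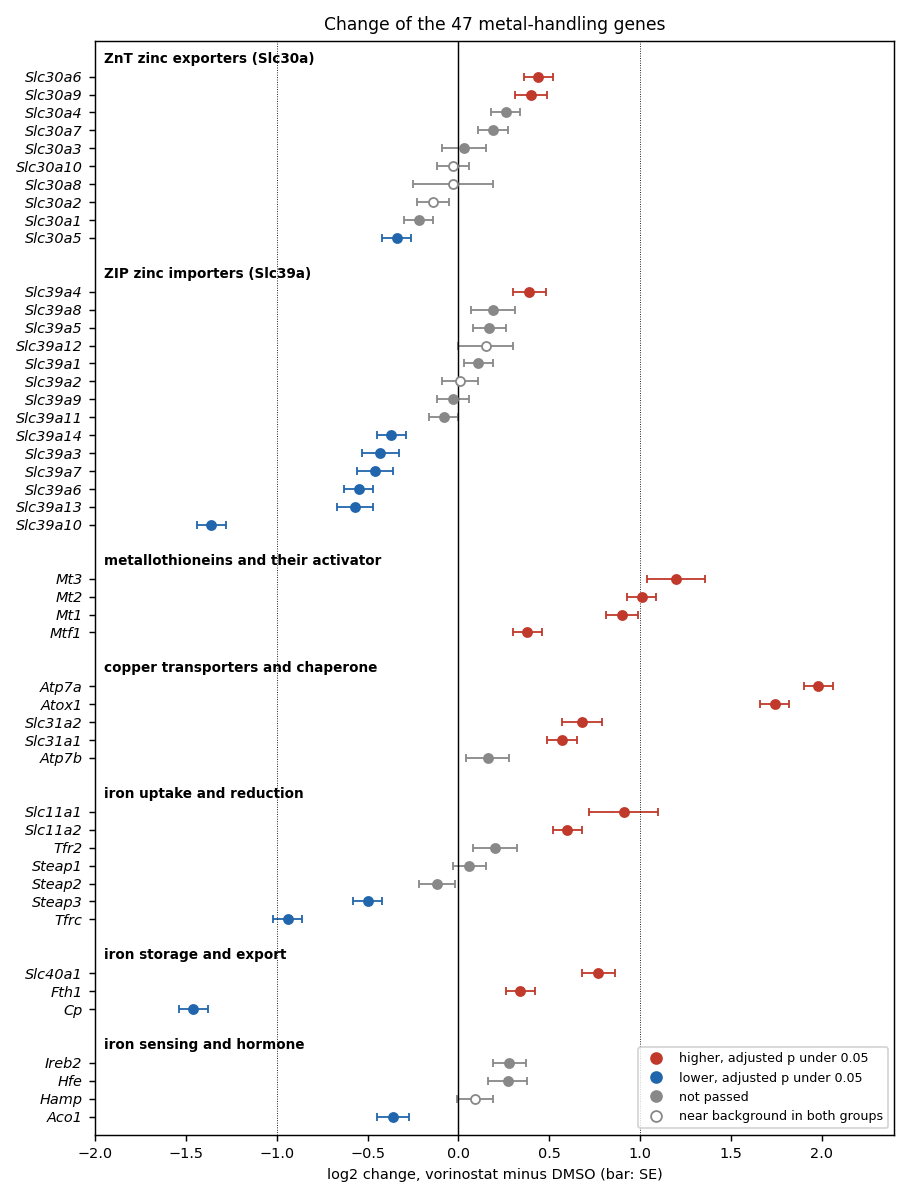
Log2 change (vorinostat minus DMSO, horizontal axis) of the 47 metal genes, grouped by role, with bars for the SE; red and blue mark genes called higher and lower, grey genes that did not pass, and open circles genes near background in both groups. Atp7a (1.98) and Atox1 (1.74) lie farthest to the right and Cp (-1.46) and Slc39a10 (-1.36) farthest to the left, and dotted lines mark 2-fold.

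The metallothioneins, small cysteine-rich proteins that bind zinc and copper, rose together with the gene of their activator. All 4 genes of this group were called higher, against 20.9% of all genes and 26.8% of those above the background margin in at least 1 group. Their median change was 0.95, against 0.03 for all genes. Mt2 stood at 11.58 and 11.56 in DMSO and at 12.61 and 12.56 in vorinostat, a rise of 1.01 (SE 0.08, adjusted p by limma = 0.000652). Mt1 stood at 12.28 and 12.27 in DMSO and at 13.25 and 13.09 in vorinostat, a rise of 0.90 (SE 0.09, adjusted p by limma = 0.00149). For both genes every vorinostat array lay above every DMSO array by several times the gap between arrays of a group.

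The brightest Mt1 probe set is of a type that can match more than 1 transcript, and metallothionein messages resemble each other, so how much of this signal is Mt1 is uncertain. A second Mt1 probe set, which is not of that type, went from 5.03 and 4.67 to 6.02 and 6.21, a rise of 1.26. Mt3, a metallothionein best known from neurons, was at 5.15 and 5.57 in DMSO and at 6.66 and 6.47 in vorinostat. Its rise of 1.20 (SE 0.16) was called (adjusted p by limma = 0.00377), with wider gaps between the arrays of a group than for Mt1 and Mt2. Without Vorinostat 1 the Mt3 change was 1.11 and did not pass (adjusted p = 0.0601, against 0.022 to 0.0416 without each other array).

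Mtf1, the zinc-sensing transcription factor that acts on metallothionein genes, was at 6.59 and 6.54 in DMSO and 6.97 and 6.92 in vorinostat, a rise of 0.38 (SE 0.08, adjusted p by limma = 0.0176). Of its 5 probe sets 3 were called higher (0.38, 0.70 and 0.47), 1 did not pass (0.28) and 1 was near background. Mtf1 passed in none of the fits without 1 array, where its change was 0.41, 0.35, 0.36 and 0.40 without DMSO 1, DMSO 2, Vorinostat 1 and Vorinostat 2.

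Mt1, Mt2, Mt3 and Mt4 lie next to each other on chromosome 8 in the RefSeq gene order (assembly GRCm38.p6). Mt4, which is known from stratified epithelia, was near background in both groups. Beside the cluster, on the side of Mt4, the ciliary gene Bbs2 rose by 0.39 (SE 0.08) and the next gene, Ogfod1, was at 0.00. On the side of Mt1, the nuclear pore gene Nup93 fell (-0.31, SE 0.08) and the next gene, Slc12a3, was at -0.01. None of these 4 neighbours, which were looked at because of their position, changed by more than 0.39, against 0.90 to 1.20 for Mt1, Mt2 and Mt3.

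Among the zinc exporters of the ZnT family, 2 of 10 members rose and 1 fell, or 30% called, against 39.9% of all genes. The changes ran from -0.34 to 0.44, with a median absolute change of 0.21, against 0.24 for all genes. Scaling on 7 reference genes gave 6 higher and 0 lower, against 11340 and 2048 of all 18193 genes. Slc30a1, which exports zinc across the plasma membrane and is a known target of Mtf1, was at 6.92 and 6.86 in DMSO and at 6.71 and 6.63 in vorinostat. Its change of -0.22 (SE 0.08) did not pass (adjusted p by limma = 0.103). Among probe sets above the median level it passed (-0.22, adjusted p = 0.0389), and under reference-gene scaling it turned to 0.15. A second Slc30a1 probe set was at -0.07 with overlapping groups.

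The members that rose were Slc30a6 (0.44, SE 0.08), a transporter of the Golgi network, and Slc30a9 (0.40, SE 0.09), which acts in mitochondria. Slc30a5, which loads zinc into the secretory pathway together with Slc30a6, fell (-0.34, SE 0.08). None of the 3 passed in a fit without 1 array. Over those fits Slc30a6 ranged from 0.39 to 0.49, Slc30a9 from 0.33 to 0.47 and Slc30a5 from -0.37 to -0.32. Under reference-gene scaling Slc30a5 was at 0.02. Slc30a4, at 10.96 and 11.01 in DMSO and 11.26 and 11.23 in vorinostat, did not pass (0.26, adjusted p by limma = 0.06). Its groups did not overlap, as for 68.9% of all genes. Slc30a7, a Golgi zinc transporter, was at 0.19 and did not pass, while its second probe set was called higher (0.59). Slc30a3 was at 0.03, and Slc30a2, Slc30a8 and Slc30a10 were near background in both groups.

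Zinc importers of the ZIP family were lower in 6 of 14 cases and higher in 1. The share called lower was 42.9%, against 18.9% of all genes and 24.8% of those above the background margin in at least 1 group. Scaling on 7 reference genes left 1 ZIP member lower and 8 higher, against 2048 and 11340 of all 18193 genes. The largest fall in this family was that of Slc39a10, an importer of the plasma membrane. It was at 8.42 on both DMSO arrays and at 7.01 and 7.11 in vorinostat, a change of -1.36 (SE 0.08, adjusted p by limma = 0.000366). A second probe set gave -1.41, from 6.38 and 6.32 to 4.72 and 5.15. In each of the fits without 1 array Slc39a10 was called, between -1.42 and -1.31, and under reference-gene scaling it was still called lower (-0.99).

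Slc39a6, the closest relative of Slc39a10 in the family, moved the same way but less. It was at 10.65 and 10.68 in DMSO and at 10.10 and 10.12 in vorinostat, a change of -0.55 (SE 0.08, adjusted p by limma = 0.00426). Of its other probe sets, the ones above background gave -0.58 and -0.60, and the dimmest was near background. The other ZIP members called lower were Slc39a13 (-0.57), which releases zinc from vesicles in connective tissue cells, Slc39a7 (-0.46), which releases it from the endoplasmic reticulum, Slc39a3 (-0.43) and Slc39a14 (-0.37), which also carries iron and manganese. Slc39a14 was called lower at 2 of its 4 probe sets, and Slc39a3 at both of its own. The only Slc39a7 probe set is of a type that can match more than 1 transcript.

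With 1 array fewer per fit, several of these falls were not called. Slc39a6 was called in each such fit (-0.57 to -0.54). Slc39a3 and Slc39a14 passed in none of the fits without 1 array, over which they ranged from -0.51 to -0.35 and from -0.40 to -0.34. Slc39a13 and Slc39a7 passed without Vorinostat 2 (-0.68 and -0.57). The calls were lost without DMSO 1 (-0.55 and -0.41), DMSO 2 (-0.60 and -0.51) and Vorinostat 1 (-0.47 and -0.36). With DMSO 1, DMSO 2 or Vorinostat 1 left out, 2 ZIP members were lower.

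Slc39a4, the intestinal zinc importer whose loss causes zinc deficiency, was the ZIP member called higher. It went from 4.92 and 4.87 to 5.22 and 5.34 (0.39, SE 0.09, adjusted p by limma = 0.0212), but did not pass when any 1 array was left out (0.33 to 0.45). Slc39a1, a broadly expressed plasma membrane importer studied in prostate, was at 8.94 and 9.02 in DMSO and 9.10 and 9.08 in vorinostat. Its change of 0.11 (SE 0.08) did not pass (adjusted p by limma = 0.38). Slc39a8 (0.19), Slc39a5 (0.17), Slc39a9 (-0.03) and Slc39a11 (-0.08) did not pass either, and Slc39a2 and Slc39a12 were near background in both groups.

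**Figure D2:**
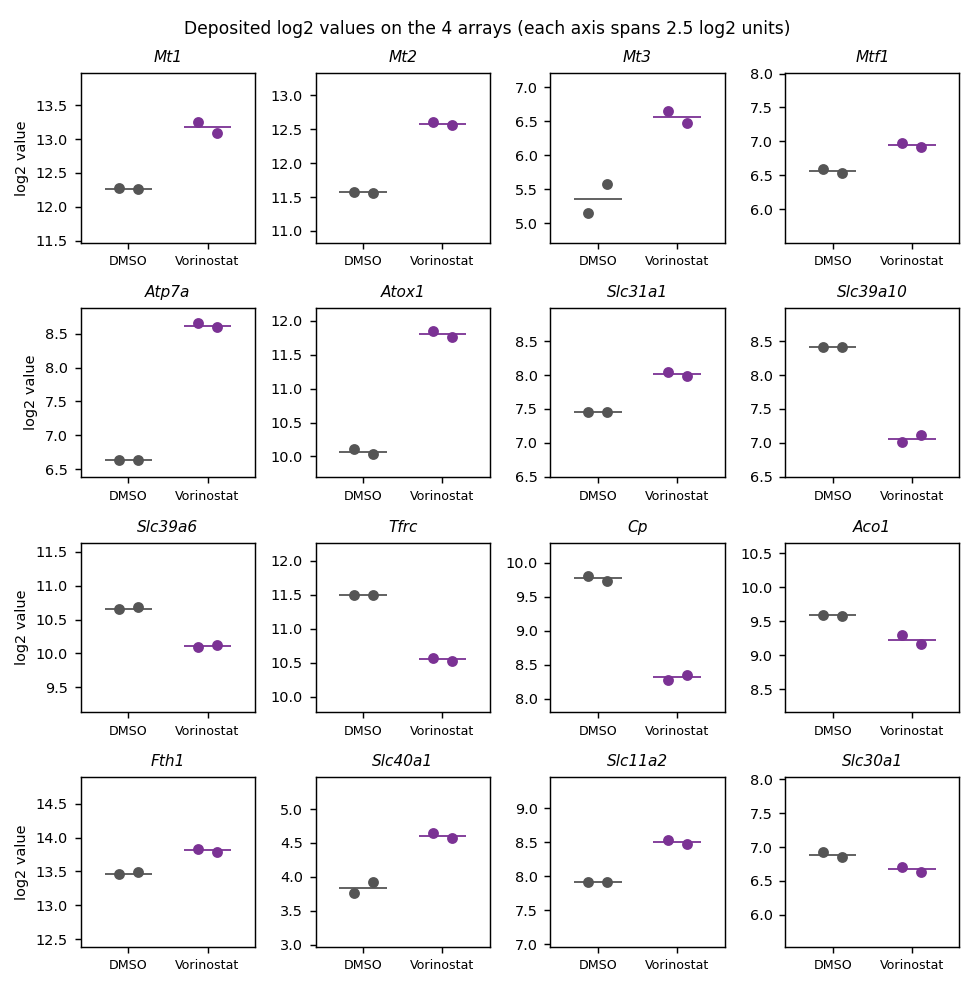
Deposited log2 value (vertical axis, each spanning 2.5 log2 units) on the DMSO 1, DMSO 2, Vorinostat 1 and Vorinostat 2 arrays for 16 metal genes, with lines at the group means of 2 arrays. Atp7a lies at 6.64 and 6.64 against 8.65 and 8.60 and Cp at 9.81 and 9.74 against 8.28 and 8.35, while the 2 Slc30a1 groups differ by -0.22 without passing the test.

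Copper handling held the largest rises. Of 5 members 4 were called higher and 0 lower, with a median of 0.68. That is 80% higher, against 20.9% of all genes and 26.8% of those above the background margin in at least 1 group. The same 4 were called higher under reference-gene scaling, which added Atp7b and called 11340 of all 18193 genes higher. Atp7a, the copper pump whose loss causes Menkes disease, was at 6.64 on both DMSO arrays and at 8.65 and 8.60 in vorinostat. Its rise of 1.98 (SE 0.08, adjusted p by limma = 0.000183) ranked 209 among 18193 genes, and a second probe set rose by 1.93. Atox1, which delivers copper to that pump, went from 10.11 and 10.03 to 11.85 and 11.76. It rose by 1.74 (SE 0.08, adjusted p by limma = 0.000251), with rank 297. For both genes the arrays of a group lay within 0.1 of each other.

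Probes of this Atox1 set may also bind more than 1 transcript. A second bright one rose by 1.59, a dim one by 0.44, and the dimmest was near background. When probe sets of the less specific types were left out, the dim one stood for Atox1 (0.44, called), so the size of its rise rests on the pair of bright probe sets.

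Slc31a1, the main copper importer of the plasma membrane, was at 7.46 on both DMSO arrays and at 8.05 and 7.99 in vorinostat. It rose by 0.57 (SE 0.08, adjusted p by limma = 0.00416), but its second probe set was at 0.09 with overlapping groups, and the mean of both probe sets rose by 0.33. Slc31a2, a relative found in endosomes and lysosomes, went from 5.93 ± 0.10 (SD, n = 2) to 6.62 ± 0.17 (SD, n = 2), a rise of 0.68 (SE 0.11), and its second probe set rose by 0.87. Slc31a2 lost its call when DMSO 1 (0.61), DMSO 2 (0.75) or Vorinostat 2 (0.56) was left out. Atp7b, the pump defective in Wilson disease, was at 3.73 and 4.01 in DMSO and at 4.08 and 3.98 in vorinostat. Its change of 0.16 (SE 0.12) did not pass (adjusted p by limma = 0.383), while a dimmer probe set was called higher (0.61) and the dimmest was near background. The mean over its 3 probe sets was also called higher (0.30, adjusted p = 0.0239).

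Of 7 iron uptake genes 2 were higher and 2 lower, or 28.6% each way, near the 20.9% and 18.9% of all genes. Reference-gene scaling gave 4 higher and 1 lower, against 11340 and 2048 of all 18193 genes. The receptor Tfrc, which brings transferrin-bound iron into the cell, was at 11.49 on both DMSO arrays and at 10.57 and 10.52 in vorinostat. It fell by 0.94 (SE 0.08, adjusted p by limma = 0.000786), to 0.521 of its DMSO level. The other tested probe sets gave -0.94 and -1.10. In each of the fits without 1 array it was called, between -0.97 and -0.91, and reference-gene scaling gave -0.57, also called.

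The array also carries 3 control probe sets for Tfrc, named for the 3' end, middle and 5' end of its message. They were outside the fit. The 3' set went from 7.62 and 7.65 to 6.53 and 6.53, the middle set from 5.46 and 5.44 to 4.41 and 4.71, and the 5' set from 5.64 and 5.46 to 4.51 and 4.52. All 3 were thus lower on every vorinostat array than on every DMSO array, by 1.11, 0.89 and 1.04, close to the tested probe sets.

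Slc11a2, the proton-coupled transporter that moves ferrous iron out of the gut lumen and out of endosomes, was the 1 metal gene whose probe sets were called in opposite directions. Its brightest probe set went from 7.92 and 7.91 to 8.54 and 8.48, a rise of 0.60 (SE 0.08, adjusted p by limma = 0.00339). Another went from 7.06 and 7.05 to 6.75 and 6.77, a fall (-0.29, SE 0.08, adjusted p by limma = 0.0366). The remaining probe sets were at 0.24 and -0.24 and did not pass. Each of the 4 had groups that did not overlap, as did 62.8% of all probe sets. The gene is known to make messages with and without an iron-responsive element, but the annotation used here does not say which of them a probe set measures. Without the less specific types of probe set, Slc11a2 is represented by the one at -0.29, and the mean over its 4 probe sets was 0.08 and did not pass.

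Slc11a1, a relative of Slc11a2 known from the phagosomes of macrophages, was at 3.66 and 3.82 in DMSO and 4.91 and 4.38 in vorinostat. Its DMSO arrays lay just above the background margin, which was 3.54 on DMSO 1 and 3.75 on DMSO 2. Slc11a1 rose by 0.91 (SE 0.19, adjusted p by limma = 0.0166), with the 2 vorinostat arrays 0.53 apart. Its call was lost when DMSO 1 (0.82), DMSO 2 (0.99) or Vorinostat 1 (0.64) was left out. Of 4 immune markers measured, the leukocyte gene Ptprc and the macrophage gene Adgre1 were near background in both groups, Csf1r (0.18) did not pass and Cd3e rose by 0.43. The mean of these markers was 3.64 and 3.68 in DMSO and 3.80 and 3.84 in vorinostat, and its part in the rise of Slc11a1 was not tested.

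Some Steap proteins reduce ferric iron and copper so that they can be carried. Steap3, the endosomal reductase that works beside Tfrc, went from 6.36 and 6.26 to 5.82 and 5.80, a change of -0.50 (SE 0.08, adjusted p by limma = 0.00781). Of its 3 probe sets 2 were called lower and the remaining one was at -0.39 without passing. Steap3 passed without DMSO 2 (-0.55), but not without DMSO 1 (-0.45), Vorinostat 1 (-0.51) or Vorinostat 2 (-0.49). Steap1, which is named for its abundance in prostate, was at 9.65 and 9.60 in DMSO and 9.62 and 9.74 in vorinostat, and Steap2 at 9.49 and 9.39 against 9.22 and 9.43. Their groups overlapped, with changes of 0.06 and -0.12, although the dimmest of 5 Steap2 probe sets was called lower (-0.61). Tfr2, the transferrin receptor of liver and erythroid cells, was at 0.20 and did not pass.

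**Figure D3:**
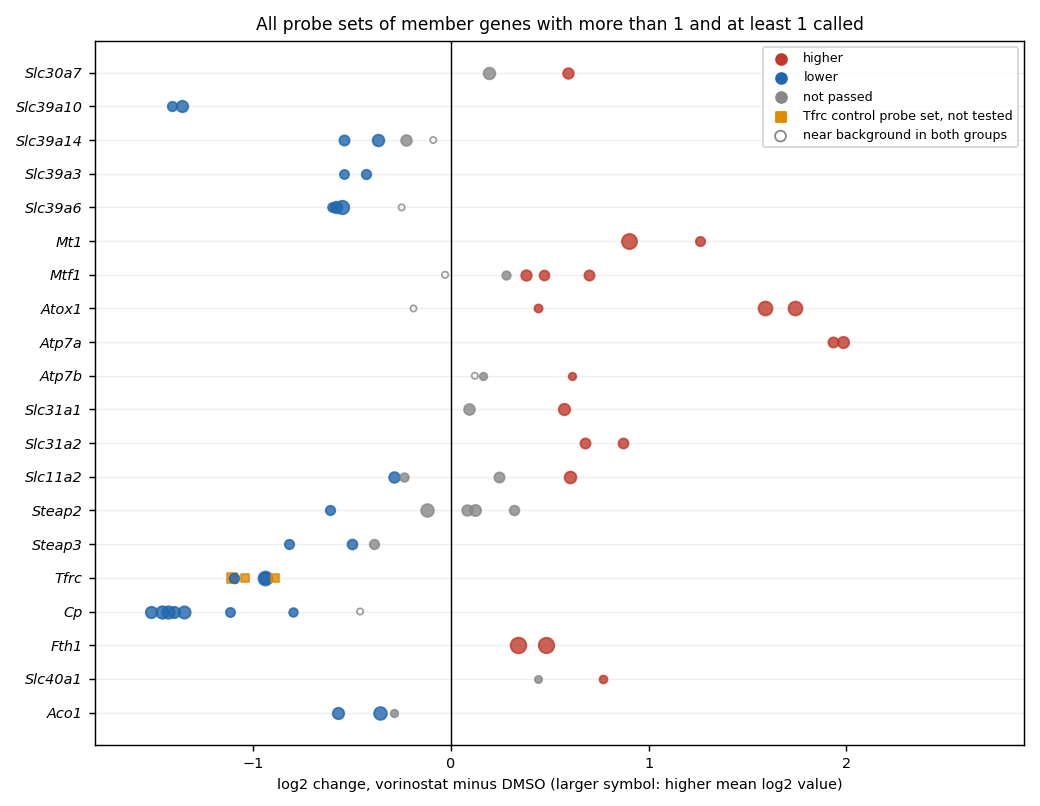
Log2 change (vorinostat minus DMSO, horizontal axis) of each probe set of the 20 metal genes with more than 1 probe set and at least 1 called, coloured by call, with larger symbols for brighter probe sets, squares for the 3 untested Tfrc controls and open symbols near background. Probe sets of Atp7a, Slc39a10 and Tfrc lie close together, while those of Slc11a2 spread from -0.29 to 0.60 and those of Atox1 from -0.19, near background, to 1.74.

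Of the genes of iron storage and export, ceruloplasmin fell, and ferritin heavy chain and ferroportin rose. Cp, the copper-dependent ferroxidase that helps iron leave cells, was at 9.81 and 9.74 in DMSO and at 8.28 and 8.35 in vorinostat. It fell by 1.46 (SE 0.08, adjusted p by limma = 0.000308), the largest fall of the 47 genes. Of its 8 probe sets 7 were called lower, from -1.52 to -0.80, and the dimmest was near background. Slc40a1, which encodes ferroportin, the iron exporter, was at 3.76 and 3.92 in DMSO and 4.64 and 4.57 in vorinostat, so its DMSO arrays lay just above the background margin. It rose by 0.77 (SE 0.09, adjusted p by limma = 0.00255), and a second, dimmer probe set was at 0.44 and did not pass.

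Fth1, the ferritin heavy chain, was at 13.46 and 13.49 in DMSO and at 13.83 and 13.79 in vorinostat. Its rise of 0.34 (SE 0.08, adjusted p by limma = 0.024) was near the threshold. It was not called when any 1 array was left out (0.32, 0.36, 0.32 and 0.36 without DMSO 1, DMSO 2, Vorinostat 1 and Vorinostat 2). Centring arrays on their median (0.28, adjusted p = 0.0544) or repeating quantile normalization (0.24, adjusted p = 0.0623) also ended the call. The second probe set rose by 0.48, from 13.09 and 13.04 to 13.54 and 13.54. Probes of the brightest set may bind more than 1 transcript, and ferritin has pseudogenes of near-identical sequence, so the Fth1 values are uncertain.

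Among the genes that sense iron, Aco1, the cytosolic aconitase that turns into an iron regulatory protein when it loses its iron-sulphur cluster, went from 9.59 and 9.58 to 9.30 and 9.16. Probes of that set may bind more than 1 transcript. Its fall (-0.36, SE 0.09, adjusted p by limma = 0.0303) was not called when any 1 array was left out (-0.43 to -0.29) and became 0.01 under reference-gene scaling. A second Aco1 probe set, of the more specific type, fell by 0.57, from 8.04 and 7.98 to 7.46 and 7.43, and the dimmest was at -0.29 and did not pass. Ireb2, the other iron regulatory protein, was at 8.01 and 7.87 in DMSO and 8.23 and 8.22 in vorinostat. Its change of 0.28 (SE 0.09) did not pass (adjusted p by limma = 0.0621), although it passed in 6 other ways of processing. The Ireb2 groups did not overlap, as for 68.9% of all genes. Hfe, a partner of the transferrin receptors that is mutated in hereditary iron overload, was at 0.27 and did not pass. Hamp, which encodes the liver hormone hepcidin, was near background in both groups.

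Beyond these, 63 other genes of metal, haem and iron-sulphur biology were listed by role, and 58 had a probe set. Of these 21 rose and 8 fell, or 36.2% higher and 13.8% lower, against 20.9% and 18.9% of all genes, with a median of 0.20 against 0.03. Of all genes above the background margin in at least 1 group, 26.8% were higher and 24.8% lower. Genes of haem synthesis, transport and breakdown were higher in 8 of 17 cases (47.1%) and lower in 1 (5.88%). The shares of all genes were 20.9% and 18.9%, and 26.8% and 24.8% above that margin. The biliverdin reductase Blvrb rose most, from 7.04 ± 0.05 (SD, n = 2) to 9.58 and 9.41 on the 2 vorinostat arrays, a change of 2.46 (SE 0.09, adjusted p by limma = 0.00018). The haem synthesis enzyme Urod rose by 1.55, and its second probe set was also called higher. The haem-degrading Hmox1, which frees iron from haem, rose by 0.93, a value given because of that role. The synthesis enzyme Alad fell (-0.52), but a dimmer probe set of it rose by 0.46. The Alad call was lost without DMSO 1 (-0.47) or Vorinostat 1 (-0.47).

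Genes of mitochondrial iron and iron-sulphur clusters were higher in 6 of 13 cases (46.2%) and lower in 1 (7.69%). The shares of all genes were 20.9% and 18.9%, and 26.8% and 24.8% above the background margin in at least 1 group. Isca2, which helps build clusters in mitochondria, rose by 1.23 (SE 0.09), at a single probe set of a less specific type. Ciao2b, of the cytosolic assembly pathway, rose by 0.80. Nubp1, a scaffold of the same cytosolic pathway, fell by 1.42 (SE 0.12), and its other probe sets gave -1.66 and -1.58. Of 7 copper chaperones and copper enzymes 1 rose, Cox17 (0.70), and 2 fell, Sco2 (-1.35), which delivers copper to cytochrome oxidase, and Sod1 (-0.40). That is 14.3% higher and 28.6% lower, against 20.9% and 18.9% of all genes. Of genes above the background margin in at least 1 group, the shares were 26.8% and 24.8%. The Cox17 value comes from a less specific probe set, and its other one was near background. The only Sco2 probe set is also of a less specific type. Sod1 was called lower at 2 of 5 probe sets, but its call was lost when any 1 array was left out (-0.42 to -0.38).

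Genes of iron uptake and ferritin turnover were higher in 2 of 10 cases and lower in 2, or 20% each way, near the shares of all genes. The ferritin autophagy receptor Ncoa4 rose by 0.66 and the iron-sensing ligase subunit Fbxl5 by 0.33, while the iron chaperones Pcbp2 (-0.67) and Pcbp1 (-0.57) fell. The Pcbp2 value comes from a probe set of a type that can match more than 1 transcript. Its other probe sets, above background, were at -0.03 and 0.06. Pcbp1 was not called without DMSO 1 (-0.56), nor Fbxl5 when any 1 array was left out (0.29 to 0.36). In hepcidin signalling, Neo1 fell (-0.45) at its brightest probe set, with its other probe sets not called, and Hjv was called (0.34) although near background in both groups. Neo1 lost its call without DMSO 1 (-0.43), DMSO 2 (-0.46) or Vorinostat 1 (-0.38), and Hjv when any 1 array was left out (0.26 to 0.42). Among 5 other genes of zinc and manganese handling, Atp13a2, a pump of lysosomes, rose by 0.45 and the channel Trpm7 fell (-0.72), while Mt4 was called higher (0.52) although near background in both groups. The Atp13a2 call was lost when any 1 array was left out (0.43 to 0.48), although all 3 of its probe sets were called higher, and the Mt4 call without DMSO 1 (0.45), Vorinostat 1 (0.48) or Vorinostat 2 (0.55). Scaling on 7 reference genes gave 45 of the 58 higher and 4 lower, against 11340 and 2048 of all 18193 genes.

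Agreement between probe sets was uneven over the 47 metal genes. Of the 29 genes with more than 1 tested probe set, 7 had all of them called in the same direction, 13 had called and uncalled ones, 9 had none called and 1 had calls in opposite directions and is also among the 13. Over the tested probe sets 25 were higher and 28 lower (52.5% called, against 16.5% higher and 15.7% lower, or 32.2%, of all probe sets). Counting by gene thus gives more rises and counting by probe set more falls, to which Cp alone added 7. Near background in both groups were 19 of the 101 tested metal probe sets, against 16959 of all 45037. The shares called among probe sets above background were not compared. The plot of the 26 called genes under other processing shows which of them depended on a single setting.

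**Figure D4:**
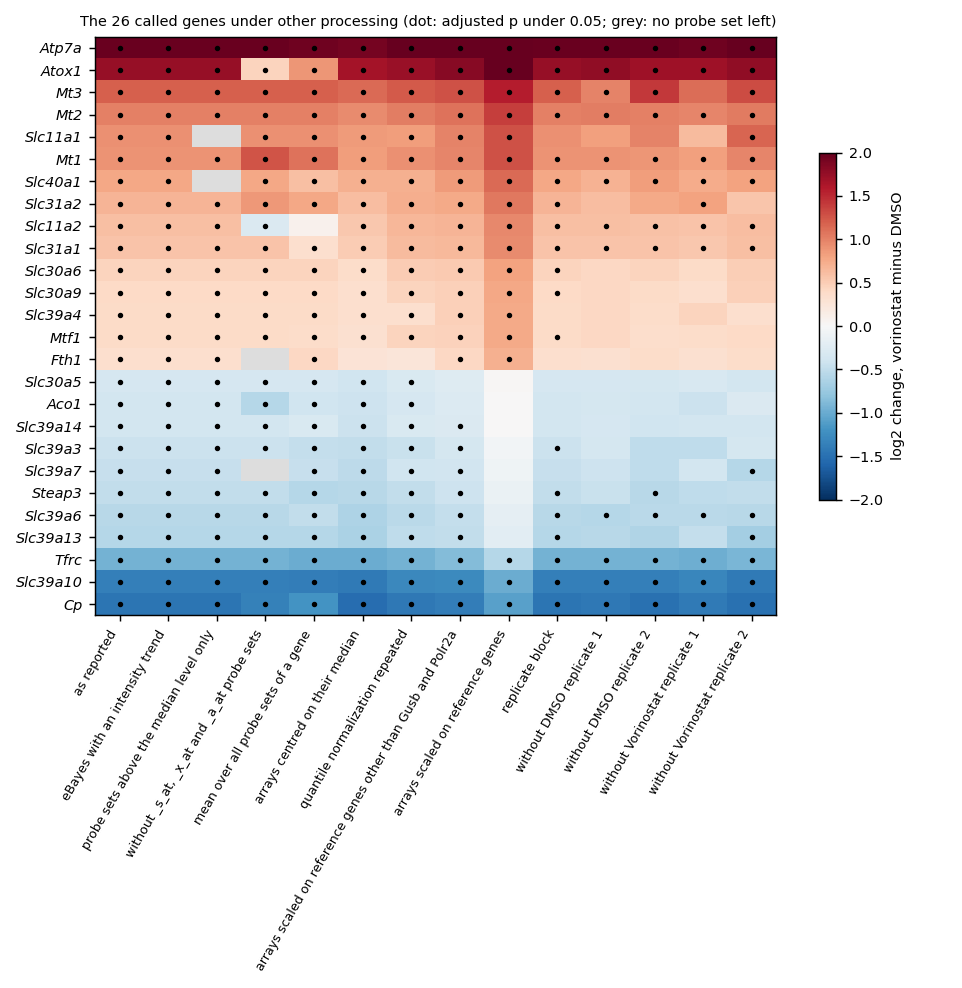
Log2 change (colour, vorinostat minus DMSO) of the 26 called metal genes (rows, from the largest rise to the largest fall) as reported and under 13 other settings (columns), with a dot where the adjusted p was under 0.05 and grey where no probe set was left. Atp7a, Atox1, Mt1, Mt2, Tfrc, Slc39a10 and Cp have a dot in each column, while small changes such as those of Fth1 and Aco1 lose theirs when an array is left out.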

How the data were processed

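The 4 arrays are 2 of PPS-ICBR cells with vorinostat and 2 with DMSO. RMA (background correction, quantile normalization and summary of the probes of a set) and the Transcriptome Analysis Console are named in the submitters' processing notes, without versions. The deposited values are log2 expression per probe set, and RMA gives all arrays nearly the same distribution, so a shift shared by most genes would be removed. Array medians were 4.19, 4.22, 4.26 and 4.28, and the number of arrays limits the precision.

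Probe sets were named from the platform annotation, which can be old: 34945 of the tested ones had 1 symbol, 932 several and 9160 none, and 64 control probe sets were not tested. All 47 metal genes matched a RefSeq symbol. Each of 45037 probe sets was fitted with lmFit and eBayes (limma 3.58.1, R 4.3.3), with only the treatment as a term and Benjamini-Hochberg adjustment over all of them. The fit was also run on simulated independent values with few changed probe sets, which checks the code and not the calls made here. The metal genes, the other lists and the markers were chosen with earlier results of these data known. The rule names each metal gene changed at least 2-fold and a set of key genes in any case, plus the 2 largest called changes per direction in each other list; the remaining metal genes are given so that each is accounted for. Alternatives were centring on the median, repeated quantile normalization, scaling on reference genes, an intensity trend in eBayes, probe sets above the median level, leaving out less specific probe set types (_s_at, _x_at and _a_at), the mean over probe sets, a replicate block, and leaving out each array. The _s_at, _x_at and _a_at types are called less specific here. Whether their probes match other genes or only other transcripts of the same gene was not examined. Scaling without Gusb and Polr2a was added after seeing the data. Sequences and promoter motifs are not analysed here.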

Additional observations from a re-analysis of the deposited data

How the results depend on the processing

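Over the 13 alternatives, counts of called genes moved by over 1.5 times when an array was left out (in at least 1 case per count), with scaling on reference genes, and in a few other cases. Leaving out 1 array gave 2094 to 2381 genes higher and 2046 to 2326 lower in all, 8 to 9 and 4 to 6 of the metal genes, 14 to 16 and 15 to 19 of their probe sets, and 11 to 12 and 4 to 7 of the other metal genes. Reference-gene scaling gave 11340 higher and 2048 lower in all, 32 and 3 metal genes, 61 and 13 of their probe sets, and 45 and 4 other metal genes. The other metal genes had 4 lower by the mean over probe sets, and 4 lower without less specific probe sets, where 16 metal probe sets were higher. The cause of these differences was not tested, beyond the fewer arrays or probe sets in some of them.

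Arrays with the same replicate number showed little shared deviation. The DMSO 1 minus DMSO 2 and Vorinostat 1 minus Vorinostat 2 differences correlated at r = -0.0596 over 45037 probe sets. That value cannot show whether the arrays were paired, which the labels do not say. With the replicate number as a block, 12 metal genes were higher and 7 lower, 21 and 22 of their probe sets, 16 and 8 other metal genes, and 3103 and 2892 genes in all.

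Changes of sign were seen in these cases. Slc11a2 and Alad were called in both directions, and Slc39a11 and Slc39a9, not called as reported, were called higher under reference-gene scaling. Reference-gene scaling turned Aco1 (0.01), Slc30a1 (0.15), Slc30a5 (0.02), Slc39a11 (0.29), Slc39a9 (0.34) and Steap2 (0.25). It also called Slc30a10, Slc39a2 and Slc39a12 higher, which are near background in both groups, and the signs of such genes other than Hamp were not followed. Scaling without Gusb and Polr2a gave Slc39a11 0.00 and Slc39a9 0.05. Without less specific probe sets Slc11a2 was at -0.29, Alad at 0.46, Hamp at -0.07 and Steap1 at -0.01. Without those, Cox17 (0.14), Pcbp2 (-0.03) and Neo1 (-0.14) were also not called. Median centring gave Slc30a3 -0.03 and Steap1 0.00. Slc39a9 was at 0.04 by the mean over probe sets and 0.03 with repeated quantile normalization. Leaving out 1 array, Slc39a9 ranged from -0.10 to 0.04, Hamp from -0.02 to 0.19, Slc30a3 from -0.11 to 0.17 and Steap1 from 0.00 to 0.12.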
